A study of Mus musculus with 3 samples.

Results

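CTCF and 7 other DNA-binding or DNA-bridging factors linked to the anchors of chromatin loops were followed in the RNA of mouse embryonic fibroblasts (MEFs). The genes were taken by name, with no threshold on their values: Ctcf, its germline relative Ctcfl, Yy1, Zfp143, Maz, Patz1, Ldb1 and Adnp. All 8 were among the 21782 genes counted. The samples were asynchronous wild-type (WT) MEFs, isolated from embryos at E12.5 and grown in DMEM with 20% FBS at 37 ºC and 5% CO2. They came from 3 clones, with 1 polyA+ RNA library each and no treatment. There was thus a single condition, and the comparisons possible were between genes and between clones. Nothing in the sources used here says whether the clones came from different embryos, so the spread between them may be partly technical.

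Vertebrate chromosomes are folded into loops by cohesin, a ring-shaped complex that extrudes DNA until it is stopped. CTCF, a protein with an array of zinc fingers, binds its sites in an oriented manner and stops cohesin there through its N-terminal part. The other factors mark anchors of other kinds. YY1 binds promoters and enhancers, ZNF143 (the product of Zfp143) binds promoters, and MAZ and PATZ1 bind GC-rich sites near CTCF. LDB1 does not touch DNA itself but dimerizes and brings together enhancers and promoters through LIM-domain partners. ADNP, with the remodeller CHD4 and heterochromatin protein 1, forms the ChAHP complex, which competes with CTCF for a subset of sites in repeats.

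Sequences upstream of these genes were examined first, because YY1 and MAZ, which are among the factors, bind promoters. RefSeq promoter windows on GRCm38.p6, from 250 bases before to 50 bases after a start site, were found for 7 of the 8 genes, 12 windows in all. Both strands were searched for the motifs of YY1, MAZ, CTCF and ZNF143. The YY1 motif was found in 2 of the 12 windows and in 0.986% of the 32851 windows in the table, and the windows that held it were those of Ctcf and Adnp. They are shown for that reason, each 5′ to 3′ on the gene's strand from 250 bases before to 30 bases after the start site, with the YY1 motif in capitals. In the search, any base was allowed at the third position from the motif's 3′ end. The first lies at chr8:105636288-105636567 on the plus strand and the second at chr2:168207083-168207362 on the minus strand.
Ctcf: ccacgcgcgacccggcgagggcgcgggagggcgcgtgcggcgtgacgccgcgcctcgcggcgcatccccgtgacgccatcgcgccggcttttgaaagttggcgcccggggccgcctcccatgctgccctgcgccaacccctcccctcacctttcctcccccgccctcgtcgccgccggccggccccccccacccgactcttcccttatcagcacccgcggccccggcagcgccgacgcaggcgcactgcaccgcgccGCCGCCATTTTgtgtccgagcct
Adnp: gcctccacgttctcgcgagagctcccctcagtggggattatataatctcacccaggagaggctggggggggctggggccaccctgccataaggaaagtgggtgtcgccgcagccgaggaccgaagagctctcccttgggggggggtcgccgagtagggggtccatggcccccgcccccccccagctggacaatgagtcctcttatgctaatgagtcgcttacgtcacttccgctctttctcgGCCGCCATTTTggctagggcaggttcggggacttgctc
In Ctcf the motif ran from base 8 to base 18 after the RefSeq start site, and in Adnp it spanned that site, from -8 to 3. The GENCODE M21 start of Ctcf, 105636568, lies after the printed stretch. Counted from that start, the motif in Ctcf is upstream. The MAZ motif GGGAGGG was in 6 of the 12 windows (those of Maz, Ctcf, Patz1 and Ldb1) and in 22.0% of all windows. Some of these genes gave more than 1 of the 6 windows. The 6 held 23 to 51 CpG dinucleotides each, against a median of 7 over all windows, and windows of like base content were not compared. Neither of the MAZ matches in the Ctcf window, at -226 to -220 and at -113 to -107, overlapped the YY1 motif. The CTCF core motif, present in 2.43% of all windows, and the ZNF143 motif, present in 1.01%, were in 0 of the 12. The whole 300-base window of Ctcf held 47 CpG dinucleotides, more than 98.6% of all windows, whose median was 7, and that of Adnp held 17. These matches are of letters only, and no binding was measured here.

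Library totals ranged from 22594316 to 25261357 counts, a 1.12-fold span. Levels are given as counts per 1000000 counts (CPM) after scaling of the library sizes. The 8 fibroblast markers summed to 56790, 47169 and 45747 CPM in clones 1, 2 and 3, most of it from collagen genes, while Dcn, the lowest of them, was at 7.73 CPM on average. Clones differed in the levels of marker genes. The summed level of 6 proliferation markers was 368, 723 and 609 CPM in clones 1, 2 and 3, and that of 3 cell cycle arrest genes was 587, 411 and 464 CPM. Macrophage markers were detected in every clone, and the 9 of them summed to 344, 1631 and 282 CPM. In bulk RNA, fewer cells of a type and less RNA per cell cannot be told apart. The part of these differences in the values below was not tested.

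Ctcf was transcribed in every clone. It lies at chr8:105636568-105682922 (GRCm38, GENCODE M21). The libraries of clones 1, 2 and 3 held 746, 925 and 1030 Ctcf counts, or 30.03, 41.0 and 40.8 CPM, with a mean of 37.3 ± 6.28 CPM (SD, n = 3). Clones 2 and 3 were close to each other and clone 1 stood below both: the exact Poisson 95% interval was 27.9 to 32.3 CPM in clone 1 and 38.4 to 43.8 CPM in clone 2. The highest clone had 1.37 times the level of the lowest. A Pearson chi-square test of the counts against library size gave a Benjamini-Hochberg adjusted p of 2.70e-11 for Ctcf. Between clones 2 and 3 alone the adjusted p was 0.944, so the call rested on clone 1. The test compares 3 libraries, not conditions, and intervals cover counting error only.

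Ctcfl encodes CTCFL (BORIS), a relative of CTCF known for its expression in male germ cells. It had 16, 15 and 14 counts in clones 1, 2 and 3, or 0.644, 0.665 and 0.554 CPM, below 1 CPM in every clone. The 3 values lay within each other's counting intervals, and the chi-square test gave an adjusted p of 0.893 for Ctcfl. Of the counts of Ctcf and Ctcfl together, Ctcf took 97.9% (exact 95% interval 96.6 to 98.8), 98.4% (97.4 to 99.1) and 98.7% (97.8 to 99.3) in the same order of clones, with a mean of 98.3% ± 0.386 (SD, n = 3). Per kb of transcript the Ctcf share was 98.0% ± 0.451. Among 11 germline genes, 5 had no count in any clone and only Stag3, a meiotic cohesin subunit, was at 1 CPM or more in every clone, with 83, 40 and 53 counts. The Ctcfl counts should be read with care. Of the 86-nt stretches of its transcript, 6.07% also matched other annotated transcripts on either strand. Exons on the opposite strand, which may be partly the same bases, cover 5.32% of its exon length. Their reads cannot be told apart if the counting did not use strand.

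The proteins that these transcripts encode differ mainly outside the zinc fingers. A pattern for C2H2 fingers found 10 in the 736 residues of CTCF, between residues 268 and 546, and 10 in the 636 residues of CTCFL. The last finger of CTCF is of the C2HC type, which the pattern does not match. In a global alignment, 206 of 279 aligned residues were identical within the CTCF finger array (73.8%) and 92 of 319 outside it (28.8%). The tyrosine-aspartate-phenylalanine motif through which CTCF is known to contact cohesin was found at residues 226 to 228 of CTCF and 0 times in CTCFL.

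Yy1, at chr12:108792973-108820148, had 845, 911 and 1141 counts in clones 1, 2 and 3, or 34.0, 40.4 and 45.2 CPM (39.9 ± 5.60, SD, n = 3). The counting intervals of clone 1 (31.8 to 36.4 CPM) and clone 3 (42.6 to 47.9 CPM) did not overlap, with clone 2 between them. The adjusted p for Yy1 was 1.17e-08 by the chi-square test. Its relatives were at lower levels. Yy2, a retroposed copy of Yy1, had 100, 124 and 124 counts, and Yy1 took 89.2% ± 1.10 of the counts of both (SD, n = 3), or 79.3% ± 1.88 per kb. All exons of Yy2 lie inside those of Mbtps2, and its counts are therefore uncertain. Zfp42 (Rex1), a pluripotency gene of the same family, had 0 counts in every clone, which allows up to 0.121, 0.133 and 0.119 CPM. YY1 carried 4 C2H2 fingers from residue 298 to 407 and a run of 12 histidines, and 91.8% of its finger residues were identical in YY2.

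Zfp143 did not pass the test for a difference between clones. At chr7:110061217-110095394, it had 367, 308 and 376 counts, or 14.8, 13.7 and 14.9 CPM (14.4 ± 0.678, SD, n = 3). All 3 counting intervals overlapped, and the adjusted p was 0.538 by the chi-square test. Its paralog Zfp523, the mouse gene for ZNF76, had 652, 417 and 494 counts, with clone 1 highest and clone 2 lowest, and an adjusted p of 9.19e-09 by the chi-square test. Zfp143 took 36.0% (exact 95% interval 33.1 to 39.0), 42.5% (38.9 to 46.2) and 43.2% (39.9 to 46.6) of the counts of the pair in clones 1, 2 and 3. The mean share was 40.6% ± 3.96 and per kb 39.4% ± 3.92 (SD, n = 3), so Zfp143 was the minor transcript of the pair in every clone. Both proteins had 7 C2H2 fingers, and 83.7% of the finger residues aligned as identical.

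Maz and Patz1, which bind related GC-rich sites, were both transcribed, with clone 1 lowest and clone 2 highest for each. Maz, at chr7:127022130-127027037, had 2531, 2584 and 2705 counts, or 101.9, 114.6 and 107.1 CPM (108 ± 6.40, SD, n = 3). Its range was narrow, and the adjusted p of 0.000329 by the chi-square test rested on clone 2, since without it the adjusted p was 0.131. Patz1, at chr11:3288874-3309083, had 578, 688 and 724 counts, or 23.3, 30.5 and 28.7 CPM (27.5 ± 3.77, SD, n = 3). Clone 1 lay below the counting intervals of both other clones. The adjusted p for Patz1 was 1.16e-05 with all clones and 0.408 without clone 1. Maz took 79.8% ± 1.43 of the counts of both genes, or 84.6% ± 1.15 per kb (SD, n = 3). Each protein had 7 C2H2 fingers, with 54.9% identity in the MAZ array. For Patz1, 12.3% of the 86-nt stretches matched other transcripts on either strand, chiefly Gm12592, while the figure was 0 for Maz, Ctcf, Yy1 and Zfp143. It was 11.5% for Zfp523 and 18.6% for Zfp42, named above. Such matches can be the same bases as exons on the opposite strand. Exons on the opposite strand covered 10.2% of the exon length of Patz1 and 7.61% of that of Ctcf, and their reads cannot be told apart if strand was not used.

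The relatives of these GC-site factors did not share 1 clone pattern. Vezf1 had 1441, 1002 and 1218 counts, with clone 1 highest and an adjusted p of 3.34e-10 by the chi-square test. Zfp281 had 615, 757 and 761 counts and Zfp148 had 924, 949 and 1161 counts, both with clone 1 lowest. Their adjusted p-values were 3.87e-07 for Zfp281 and 2.71e-05 for Zfp148.

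Ldb1 differed from the other called factors in being highest in clone 1. It lies at chr19:46031570-46045214 and had 5144, 3412 and 4297 counts, or 207.0, 151.3 and 170.1 CPM (176 ± 28.4, SD, n = 3). None of the 3 counting intervals overlapped. They ran from 201.4 to 212.8, from 146.3 to 156.5 and from 165.1 to 175.3 CPM. Its adjusted p was 1.07e-46 by the chi-square test. Ldb2, its only close paralog here, had 65, 31 and 55 counts, and Ldb1 took 98.9% ± 0.205 of the counts of both (SD, n = 3). LDB1 held no C2H2 finger, and it shared 76.7% of aligned residues with LDB2.

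Most of the LMO and LIM-homeodomain partners of LDB1 were below 1 CPM in at least 1 clone. Of 16 LMO and LIM-homeodomain genes, 3 were at 1 CPM or more in every clone (against 52.2% of all genes), or 6 at a threshold of 0.5 CPM. Those 3 were Lmo4 (50.9, 42.7 and 43.9 CPM), Lhx9 (6.16, 9.14 and 7.21 CPM) and Lhx6 (2.82, 3.81 and 3.40 CPM). Lhx1, the lowest with any count, had a single count in clone 1, and 2 of the 16 had none. Lmo2, the bridging protein of the LDB1 complex in blood cells, was named after its values were seen and had 14, 53 and 24 counts. It was called by the chi-square test and highest in clone 2, as were 23.5% of tested genes. Each of the 9 macrophage and 6 proliferation markers was also called and highest there. Which cells the Lmo2 counts came from was not tested. The single-stranded-DNA-binding proteins that stabilize LDB1 were all transcribed. Ssbp3 was at 92.5, 89.9 and 92.7 CPM, Ssbp4 at 31.0, 29.2 and 27.8 CPM, and Ssbp2 at 17.4, 11.3 and 15.2 CPM. Of these 3, only Ssbp2 passed the test, against 62.5% of tested genes, with clone 1 highest and clone 2 lowest as for Ldb1. Over all tested genes, 23.8% were called and highest in clone 1, and 21.3% were called and lowest in clone 2. In the group of GATA and bHLH partners, 3 of 5 were at 1 CPM or more in every clone, a share near the 52.2% of all genes. They were Tcf3 (122.0, 124.4 and 127.3 CPM), Tcf12 (70.2, 78.6 and 86.3 CPM) and Gata2 (18.0, 22.4 and 19.8 CPM). Gata1, the erythroid factor, had 0, 1 and 0 counts.

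Adnp had few counts: 29, 36 and 41, or 1.17, 1.60 and 1.62 CPM (1.46 ± 0.256, SD, n = 3). All counting intervals overlapped, with 0.782 to 1.68 CPM for clone 1 and 1.16 to 2.20 CPM for clone 3, and the adjusted p was 0.398 by the chi-square test. Its relative Adnp2 had 532, 609 and 732 counts, and Adnp took only 5.35% ± 0.210 of the counts of both, or 5.43% ± 0.213 per kb (SD, n = 3). The Adnp count is uncertain. The gene lies at chr2:168180986-168207112, and in GENCODE M21 82.1% of its exon length and 100% of its coding sequence also belong to Gm20716, a read-through gene on the same strand that joins Adnp and Dpm1 and is not a gene of the count table. Of the 86-nt stretches of the Adnp transcript, 88.9% were shared with it. Dpm1, whose coding sequence is also wholly inside Gm20716, had 38, 30 and 26 counts. Among protein-coding genes of the table, 211 had at least 80% of their coding sequence in another GENCODE M21 gene. Their median was 7.50 CPM, against 4.14 CPM for 19141 others. Yy2, wholly inside another gene, had at least 100 counts in every clone, but its counts are uncertain too. Whether the annotation used for counting held Gm20716 or the other overlapping genes is not given in the sources used here. The part of Gm20716 in the low Adnp count was not tested.

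The ADNP protein had 1108 residues, in which the pattern for C2H2 fingers matched 4 times. Fingers with other spacing are missed by this pattern, so 4 is not the full number of zinc fingers in ADNP. Of the aligned residues, 38.9% were identical in ADNP2. The octapeptide from which the ADNP-derived peptide drug davunetide takes its sequence was at residues 354 to 361 and was found 0 times in ADNP2. The 5 genes listed as partners of ADNP were Chd4, Cbx1, Cbx3, Cbx5 and Pogz, of which Pogz does not encode a ChAHP subunit. They were at 1 CPM or more in all clones (5 of 5, against 52.2% of all genes). Of the 5, 4 passed the chi-square test, against 62.5% of 12218 tested genes, with an adjusted p of 0.0437 for Pogz. Chd4 was at 333, 311 and 335 CPM. Cbx5, which encodes HP1 alpha, was at 90.5, 138.6 and 130.7 CPM, and Cbx3 was at 56.4, 73.4 and 82.5 CPM, both lowest in clone 1. Cbx1, at 18.5, 20.1 and 21.02 CPM, did not pass.

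**Figure D1:**
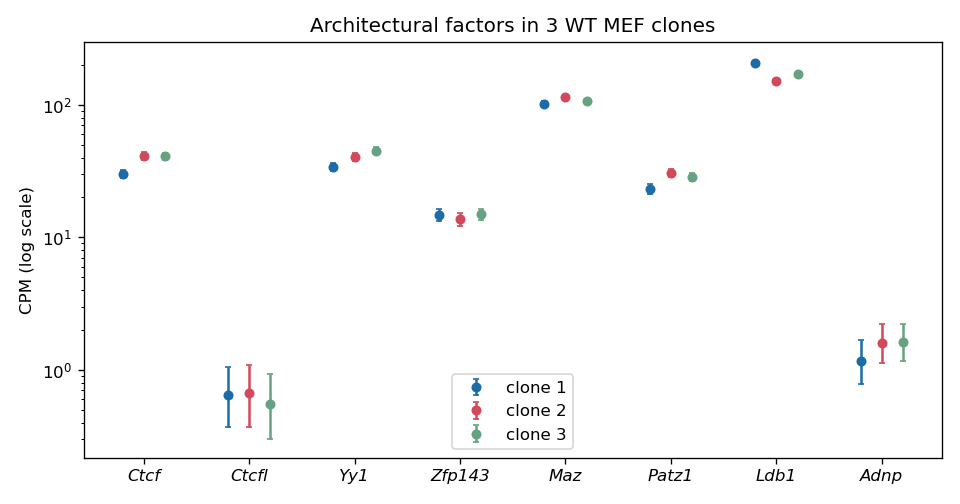
Level of the 8 factors in CPM on a log scale (y axis) for each gene (x axis) in the 3 clones, as points with exact Poisson 95% intervals. Levels are not corrected for gene length and are to be compared between clones only. Clone 1 is lowest for Ctcf, Yy1, Maz and Patz1 and highest for Ldb1, while the intervals of Zfp143, Adnp and Ctcfl overlap.

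Levels can be compared between genes only per length, and so CPM were divided by the length in kb of the annotated transcript with the longest coding sequence. Ldb1 was highest with 56.2 ± 9.05 CPM per kb, followed by Maz with 40.7 ± 2.41 (SD, n = 3). Then came Ctcf with 9.86 ± 1.66, Patz1 with 7.42 ± 1.02, Yy1 with 6.45 ± 0.907 and Zfp143 with 4.81 ± 0.226 CPM per kb. Adnp with 0.297 ± 0.0519 and Ctcfl with 0.193 ± 0.0183 CPM per kb were last. The ranges of the 3 clones overlapped between Ctcf and Patz1 and between Patz1 and Yy1, so these neighbours were not told apart, and the other neighbours did not overlap.

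The order depended on the length chosen. With the total exon length of each gene, Ldb1 (38.2 ± 6.15 CPM per kb) and Maz (36.2 ± 2.15) overlapped, and Yy1 (6.21 ± 0.873) was above Patz1 (4.65 ± 0.638), which reverses their order. When only exon length that no other gene on the same strand shares was used, a choice made after the values were seen, Adnp was at 1.53 ± 0.267 CPM per kb, still below Zfp143 and above Ctcfl. The counts were still those of the whole gene. This value is therefore a level only if reads in the shared exons were not counted, and is too high otherwise.

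**Figure D2:**
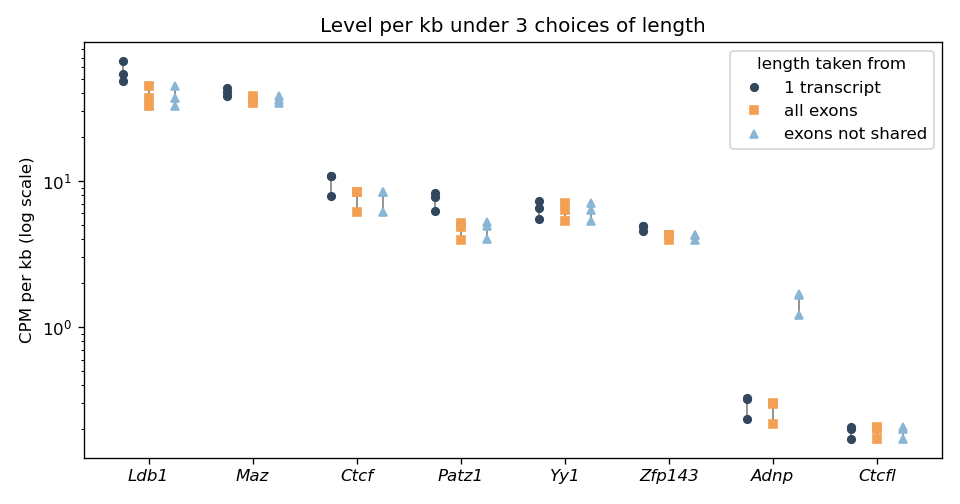
Level in CPM per kb on a log scale (y axis) for the 8 factors (x axis), with 1 point per clone and a line from the lowest to the highest clone, for 3 choices of length: 1 transcript, all exons, and exons not shared with another gene. Ldb1 and Maz lie above 30 CPM per kb under each choice, Patz1 moves from 7.42 with 1 transcript to 4.65 with all exons, and Adnp moves most, from 0.297 with 1 transcript to 1.53 with exons not shared. The counts divided are those of the whole gene under each choice.

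Ctcf and Ldb1 made up nearly all counts of the pairs they form with their paralogs, whereas Zfp143 and Adnp had the fewer counts of theirs in every clone. The Adnp share rests on the uncertain count described above. With whole-gene counts divided by the exon length that no other gene shares, Adnp was at 1.53 ± 0.267 and Adnp2 at 5.15 ± 0.783 CPM per kb (SD, n = 3). The Adnp value is too high if any reads in its shared exons were counted.

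**Figure D3:**
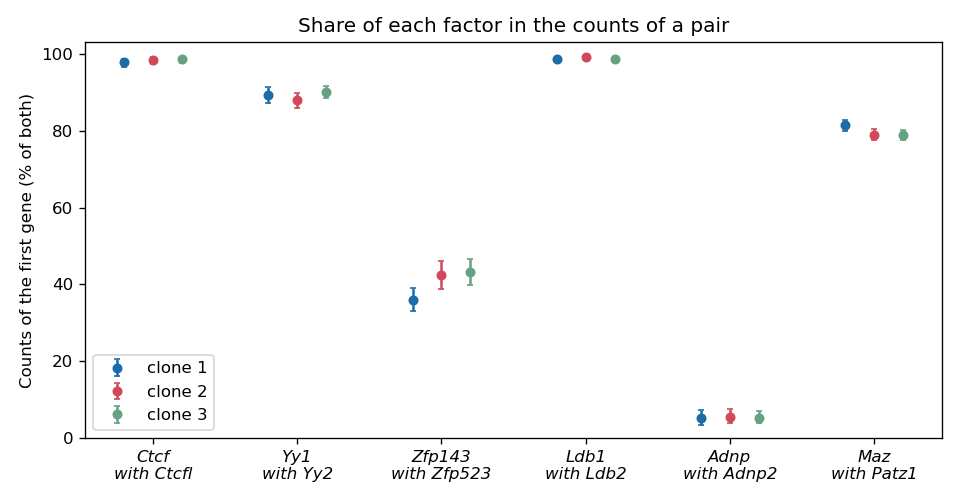
Counts of each factor as a percentage of the counts of the factor and a relative together (y axis) for 6 pairs (x axis) in the 3 clones, with exact Clopper-Pearson 95% intervals. The shares range from 5.35% on average for Adnp with Adnp2 to 98.9% for Ldb1 with Ldb2, and the Adnp share rests on a count that is uncertain.

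Read against all genes, the number of factors that differed between clones was no larger than the background. Of the 8 factors, 5 were called by the chi-square test (Ctcf, Yy1, Maz, Patz1 and Ldb1), where 62.5% of 12218 tested genes were called. Of the 8, the 4 genes Ctcf, Yy1, Maz and Patz1 were called and lowest in clone 1, as were 27.1% of tested genes. Ldb1 was called and highest in clone 1, as were 23.8% of tested genes, and called and lowest in clone 2, as were 21.3%. Ldb1 and Zfp143 had their lowest level in clone 2, as did 34.8% of tested genes with or without a call. Between the highest and the lowest clone, 0 of the 8 factors differed by 1.5-fold or more, against 22.3% of tested genes. The median ratio of the highest to the lowest clone was 1.32 for the factors and 1.24 over the tested genes, and the median coefficient of variation was 13.9% and 11.3%. At 1 CPM or more in every clone were 7 of the 8 factors, all but Ctcfl, and 52.2% of all genes. Without clone 1, 3 factors were called (Yy1, Maz and Ldb1) and 31.7% of tested genes, and without clone 2, 4 were called and 45.4%. The biological coefficient of variation that edgeR estimated for single factors ran from 0.117 for Maz to 0.252 for Adnp, and the common value over all tested genes was 0.187.

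Cohesin is the complex that CTCF stops, and its 5 core genes were set beside Ctcf. Smc1a (2727, 3072 and 3508 counts), Smc3 (1324, 1532 and 1767), Rad21 (2004, 2675 and 2738), Stag1 (721, 868 and 907) and Stag2 (1186, 1262 and 1494) were all called by the chi-square test and lowest in clone 1. Over all tested genes, 62.5% were called and 27.1% were called and lowest in clone 1. Per kb of transcript, Ctcf was at 35.9% ± 1.77 of Smc1a, 74.8% ± 2.59 of Smc3 and 38.2% ± 1.73 of Rad21 (SD, n = 3). It exceeded Stag1, at 176% ± 8.46 of its level, and was at 112% ± 8.52 of Stag2. The clone ranges of Ctcf (7.94 to 10.8 CPM per kb) and Stag2 (7.74 to 9.59 CPM per kb) overlapped, so Ctcf and Stag2 were not told apart. With total exon length in place of 1 transcript the percentages were 34.4% for Smc1a, 66.5% for Smc3, 31.8% for Rad21, 261% for Stag1 and 116% for Stag2. The ratio to Smc3, which varied least on the log2 scale, was 72.3%, 77.4% and 74.8% in clones 1, 2 and 3, and that to Stag2, which varied most, was 102.6%, 119.6% and 112.5%, while the Ctcf level itself was 1.37 times as high in clone 2 as in clone 1.

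**Figure D4:**
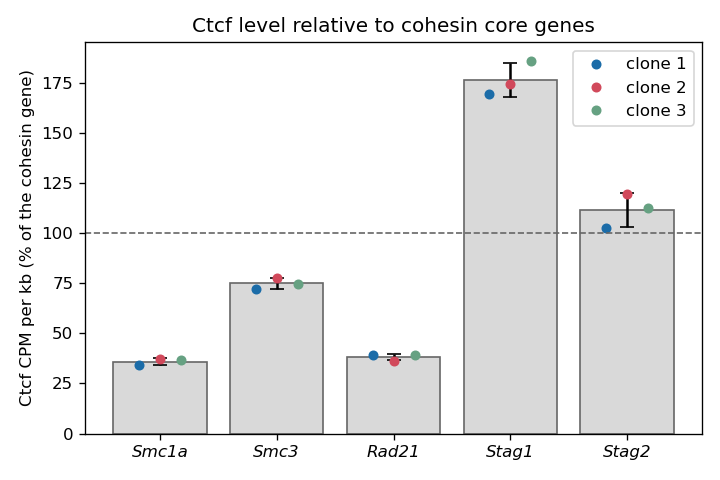
Ctcf level per kb as a percentage of that of each cohesin core gene (y axis) for 5 genes (x axis), with bars for the mean of the 3 clones, error bars for the SD and a point for each clone. The dashed line marks equal levels: Ctcf is below Smc1a, Smc3 and Rad21 and above Stag1 in every clone. The points for Stag2 also lie above the line, but the clone ranges of Ctcf and Stag2 overlap.

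The clone pattern of Ctcf was described by the deviation of log2(CPM + 1) in each clone from the mean of the 3 clones, which was -0.29, 0.15 and 0.14 in clones 1, 2 and 3. Among the 8389 genes whose mean was 10 CPM or higher, the 3 nearest to it by Euclidean distance were Exosc2, a subunit of the RNA exosome (472, 588 and 654 counts), Suv39h1, a histone H3 lysine methyltransferase of heterochromatin (544, 680 and 758 counts), and Pold3, a subunit of DNA polymerase delta (251, 316 and 350 counts). In total 351 genes were within a distance of 0.1, so the likeness was far from particular to those 3. Ranked by this distance, Smc3 was at 162, Smc1a at 314, Stag1 at 320, Rad21 at 330 and Patz1 at 347. Yy1 followed at 726, Stag2 at 749, Maz at 2206, Zfp143 at 4671 and Ldb1 at 7576. The 6 proliferation markers, whose summed level is given above, were each called, lowest in clone 1 and highest in clone 2. Over all tested genes, 27.1% were called and lowest in clone 1, and 23.5% were called and highest in clone 2. Whether these markers bear on the Ctcf pattern was not tested. Since the distance rests on 3 libraries, no test was made.

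**Figure D5:**
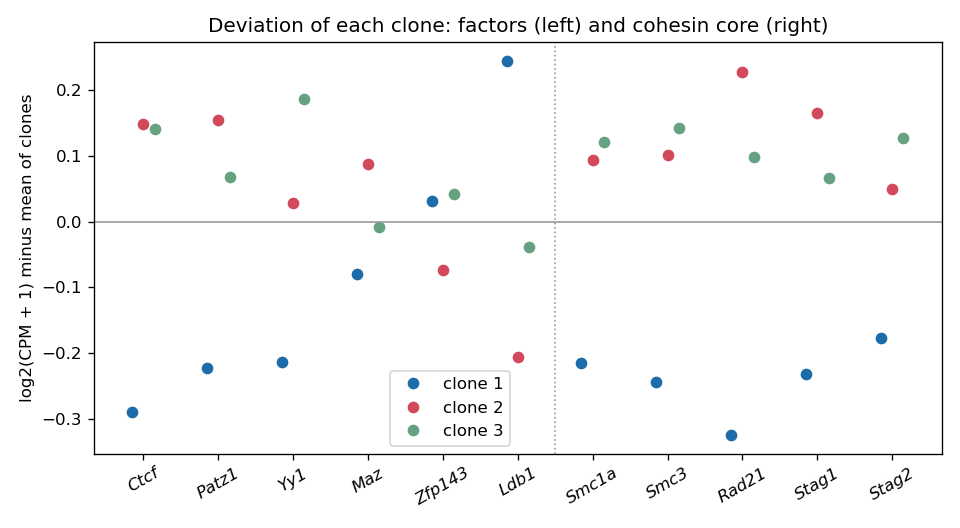
Deviation of log2(CPM + 1) in each clone from the mean of the 3 clones (y axis) for 6 factors and, right of the dotted line, 5 cohesin core genes (x axis). Clone 1 is the lowest point for Ctcf, Patz1, Yy1, Maz and every cohesin gene, and the highest for Ldb1.

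Proteins known to work with CTCF were transcribed in all clones (9 of 9 at 1 CPM or more, against 52.2% of all genes). The chi-square test called 8 of the 9, against 62.5% of tested genes, and 7 of the 9 were called and lowest in clone 1, against 27.1%. Ddx5, an RNA helicase, was at 535, 610 and 610 CPM, Npm1 (nucleophosmin) at 485, 586 and 611 CPM, and Ssrp1, a subunit of the histone chaperone FACT, at 172, 242 and 233 CPM. Taf3, a subunit of TFIID, was at 8.90, 9.58 and 10.4 CPM and did not pass.

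For ZNF143, 3 of 3 partners were called, against 62.5% of tested genes. Hcfc1, the host cell factor that it recruits, was at 146, 168 and 169 CPM, lowest in clone 1. Ogt, the O-GlcNAc transferase, was at 184, 131 and 141 CPM, highest in clone 1, and Thap11 was at 19.2, 23.0 and 22.4 CPM. YY1 belongs to the INO80 remodelling complex. All 14 genes of a list written around this complex were at 1 CPM or more in every clone (52.2% of all genes). Of these genes, 10 were called, a share near the 62.5% of tested genes. They did not move together, since 5 of those called were lowest and 5 highest in clone 1. Ruvbl2 (53.9, 68.6 and 65.6 CPM) and Ruvbl1 (31.6, 43.0 and 43.1 CPM), the ATPases of the complex core, were lowest in clone 1, and Ino80, the catalytic subunit, was highest there (42.7, 34.2 and 35.7 CPM). Actr6, which is in the list but is not an INO80 subunit, was at 4.43, 5.19 and 5.23 CPM and did not pass the test.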

How the data were processed

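The data are RNA-seq of polyA+ RNA from 3 clones of WT MEFs. According to the study's methods, the authors aligned 86-nt single-end reads with TopHat 2.0.0 (on Bowtie 0.12.7, with SAMtools at version 0.1.16), in which up to 2 mismatches and 5 positions per read were accepted, and counted them per gene with HTSeq. The methods name mm10 and the submitters' processing notes mm9. The annotation, the HTSeq version and the strand setting are not given in the sources used here. The deposited values are raw counts per gene symbol, 1 column per clone, without normalization.

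From these counts, CPM were computed with TMM library sizes (edgeR 4.0.16, R 4.3.3). Totals were 25261357, 22594316 and 24791198 counts in clones 1, 2 and 3, and 3 counts, the limit that a count of 0 allows, are 0.121, 0.133 and 0.119 CPM. Clones were compared with a Pearson chi-square test (2 degrees of freedom) against the scaled library sizes over all genes that had 10 or more counts in each of the clones, and genes with a Benjamini-Hochberg adjusted p under 0.05 were called. Shares have exact Clopper-Pearson and CPM exact Poisson 95% intervals (scipy 1.17.1), which cover counting error only, since reads carried no molecular identifiers. Gene positions, transcript lengths and coding sequences came from GENCODE M21 (GRCm38), and promoters from RefSeq (GRCm38.p6). Shared 86-nt stretches were sought on both strands with BLAST 2.17.0, allowing 2 mismatches. Proteins translated from the coding sequences were aligned with Biopython 1.88 (BLOSUM62). In data simulated with counting error only, 198 of 12404 tested genes were changed 2-fold in 1 clone. The test called 91.9% of them and 6 others. The real clones also varied beyond counting error (common biological coefficient of variation 0.187), so this does not give the test's error rate on them.

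The factors and gene lists were chosen with earlier results of these data known. Named genes were the factors, their relatives, the cohesin core, the 3 genes with the highest and the 1 with the lowest mean CPM of other lists, Pogz, genes overlapping a factor, and the 3 genes nearest to Ctcf. Zfp523 was matched to Zfp76 through a RefSeq synonym. Alternatives were DESeq2 1.42.0 size factors, total counts, other filters, lengths and pseudocounts, and leaving out each clone.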

Additional observations from a re-analysis of the deposited data

How the results depend on the processing

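The 5 called factors stayed the same with DESeq2 size factors, with total counts, without a filter on low counts and with at least 50 counts in every clone, where 48.1% to 66.7% of tested genes were called. When each clone was left out in turn, 3893 to 6531 genes and 3 to 5 factors were called. The adjusted p (chi-square, Benjamini-Hochberg) was 0.944 for Ctcf and 0.408 for Patz1 without clone 1, and 0.131 for Maz without clone 2. The common biological coefficient of variation was 0.228 without clone 3 and 0.142 without clone 2. Of the 3 genes nearest to Ctcf, 1 remained with a pseudocount of 0.1 in place of 1, and 3 with DESeq2 size factors. Levels per kb moved with the length chosen, most for Adnp. No paired analysis was possible because all clones are of 1 condition. Depth limits Ctcfl and Adnp, whose counts were between 14 and 41 per clone.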

Other observations

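Marker genes of cell types other than fibroblasts and macrophages were mostly below 1 CPM. The 5 erythroid genes that could be matched, among them the hemoglobin gene Hba-a1 with 0 counts in every clone, summed to 0.362, 0.843 and 0.238 CPM in clones 1, 2 and 3, and 0 of them were at 1 CPM or more in every clone. Of 4 pluripotency genes 0 reached that level. In the other lists, 1 of 5 epithelial, 1 of 4 endothelial and 2 of 6 neural genes did so. These were Krt18, a keratin (69, 67 and 134 counts), Kdr, a VEGF receptor (163, 214 and 314 counts), and Tubb3 (1802, 1796 and 1692 counts) and Map2 (176, 122 and 171 counts), both of the neuronal cytoskeleton. Krt18 and Kdr were highest in clone 3.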
